A study of Mus musculus with 10 samples.

Results

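The protein phosphatase genes whose symbols begin with Ptpn and a digit, Ptpr and a single letter, or Dusp and a digit were compared between Helios pos and Helios neg regulatory T cells of the mouse. By this rule the table of 13252 genes held 44 members, of which 16 were Ptpn, 11 Ptpr and 17 Dusp genes. Ptprcap, the gene of a CD45-associated protein that is no phosphatase, lay outside the rule. A mean of at least 10 normalized counts over the 10 libraries was asked for before a gene was tested, and 37 members passed it, 16 Ptpn, 7 Ptpr and 14 Dusp genes. The 7 members below it were Ptprk, Ptprm, Ptprn, Ptpro, Dusp14, Dusp18 and Dusp23.

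Helios pos cells were sorted as CD4+RFP+GFP+ and Helios neg cells as CD4+RFP+GFP-, and each population gave 5 RNA-seq libraries, numbered 1 to 5. Both carry the RFP signal, whose reporter the labels leave unnamed, while the series title calls the cells Foxp3+; the labels give no age, sex or strain. The design text of the series names wildtype and knockout cells in place of sorted populations. The groups follow the sample labels, so differences here are between sorted populations and are not effects of losing Helios, the Ikaros family transcription factor that Ikzf2 encodes. No label ties a library to a mouse, so p-values reflect the spread between these libraries, which may be technical. Summed over the 13252 genes, each library held between 4872348 and 6948692 reads. The average was 5970031 ± 899824 in Helios pos and 5935899 ± 711966 in Helios neg libraries (SD, n = 5 each). The ribosomal RNA precursor Rn45s took 8.54% of the reads in Helios neg replicate 1, the lowest share, and 18.6% in Helios neg replicate 3, the highest. Ikzf2 had 10367 ± 456 normalized counts in Helios pos and 487 ± 56.5 in Helios neg libraries (exact two-sided permutation p = 0.0079, the smallest that 252 assignments can give). Foxp3, which defines regulatory T cells, averaged 3570.1 and 3526 normalized counts in Helios pos and Helios neg libraries. Of 8 T cell and regulatory T cell markers, 3 were called higher in Helios pos cells, as given below.

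Protein tyrosine phosphatases remove phosphate groups that kinases add to tyrosines. The Ptpn genes encode enzymes without a membrane-spanning segment, the Ptpr genes receptor-type enzymes in the plasma membrane, and many Dusp genes dual specificity enzymes that take phosphate off both tyrosine and threonine. In T cells these enzymes set the threshold of the antigen receptor: CD45 activates the kinases Lck and Fyn, SHP-1 and the Ptpn22 protein oppose them, Ptpn2 restrains JAK and STAT proteins downstream of cytokine receptors, and the Dusp enzymes that bind mitogen-activated protein (MAP) kinases switch off ERK, JNK and p38. Several Dusp genes are themselves induced by ERK signals and form a feedback loop.

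The promoters of 4 members are printed because Ptpn5 showed the largest change of all members and because Dusp1, Ptpn11 and Ptprs were the members whose promoter window held a full cyclic AMP response element. The sequences are from RefSeq (build GRCm38.p6), 300 bases each, 5′ to 3′ on the minus strand on which all 4 genes lie, and end 50 bases into the transcript. The capitals mark the element TGACGTCA, which is its own reverse complement. The windows are chr7:47133635-47133934 for Ptpn5, chr17:56476431-56476730 for Ptprs, chr5:121191348-121191647 for Ptpn11 and chr17:26508423-26508722 for Dusp1.
Ptpn5: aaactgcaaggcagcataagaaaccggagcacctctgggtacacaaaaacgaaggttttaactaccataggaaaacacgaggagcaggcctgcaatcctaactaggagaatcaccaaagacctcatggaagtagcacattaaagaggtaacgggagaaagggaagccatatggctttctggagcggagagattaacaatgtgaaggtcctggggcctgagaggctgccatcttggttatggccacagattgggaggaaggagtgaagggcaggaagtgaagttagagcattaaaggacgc
Dusp1: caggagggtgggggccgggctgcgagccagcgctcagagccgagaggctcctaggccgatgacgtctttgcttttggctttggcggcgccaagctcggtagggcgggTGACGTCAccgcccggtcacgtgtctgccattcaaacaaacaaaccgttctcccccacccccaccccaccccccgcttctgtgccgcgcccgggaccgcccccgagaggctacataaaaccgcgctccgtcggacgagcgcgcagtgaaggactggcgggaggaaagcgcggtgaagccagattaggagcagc
Ptpn11: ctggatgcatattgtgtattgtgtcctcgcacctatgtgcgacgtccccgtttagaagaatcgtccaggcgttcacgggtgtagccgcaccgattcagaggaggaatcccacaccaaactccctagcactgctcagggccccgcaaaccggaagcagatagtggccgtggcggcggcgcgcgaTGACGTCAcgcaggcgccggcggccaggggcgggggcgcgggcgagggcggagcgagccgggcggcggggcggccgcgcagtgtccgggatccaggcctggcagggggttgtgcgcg
Ptprs: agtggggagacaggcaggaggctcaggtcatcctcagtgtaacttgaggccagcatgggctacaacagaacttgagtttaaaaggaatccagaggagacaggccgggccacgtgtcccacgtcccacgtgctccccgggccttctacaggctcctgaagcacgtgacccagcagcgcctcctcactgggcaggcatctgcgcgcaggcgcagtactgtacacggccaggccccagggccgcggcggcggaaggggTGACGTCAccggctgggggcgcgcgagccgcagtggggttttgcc
A promoter window was found for 39 of the 44 members, which have 49 windows together. The element stood in 3 of these 49 windows (6.12%) and in 588 of all 32851 windows (1.79%). It began 143 bases before the start in Dusp1 and 67 bases before it in Ptpn11, and 6 bases after it in Ptprs. All 3 of these genes were called higher in Helios pos cells in the comparison that follows. So were 16 of the 37 tested members in all (43.2%), Ptpn5 without the element among them, beside 14.1% of all tested genes. A link between the element and the calls was not tested. The AP-1 letters TGANTCA, searched on both strands, stood in 1 member window, that of Ptpre (2.04%), and in 7.81% of all windows. The GC box GGGCGG, on either strand, stood in 67.3% of the member windows and in 35.7% of all windows, and the Ikaros core letters TGGGAA in 28.6% and 25.6%. These matches describe the letters in the windows and say nothing of binding.

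Phosphatase genes differed between the populations in both directions. Of the 37 tested members, limma called 16 higher and 7 lower in Helios pos cells, or 62.2%, where a call is a Benjamini-Hochberg adjusted p under 0.05 over all 10718 genes tested. Over all tested genes 24.8% were called, 14.1% higher and 10.7% lower. Among the members called higher, Ptpn5 and Dusp3 had Helios neg means under 10 and passed the minimum only through Helios pos. Changes are given as Helios pos minus Helios neg as log2(normalized count + 1), where the added 1 shrinks the differences of low genes. The median change of the members was 0.11, against -0.019 over all tested genes, and the median size of change was 0.33 against 0.18. The groups did not overlap for 16 of the 37 members, as for 19.5% of all tested genes. The direction was the same in all 5 pairs of equal replicate number for 27 members, as for 39.8% of all tested genes. In bulk libraries, more RNA per cell and more cells that hold the RNA cannot be told apart.

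The classes differed in their medians. Among 16 Ptpn genes 7 were higher and 2 lower, with a median change of 0.21 and medians in the 5 pairs between 0.080 and 0.29. Among 14 Dusp genes 7 were higher and 3 lower, with a median of 0.26 and pair medians of 0.10 to 0.49. The Dusp median was 0.40 with no filter on low values or with a mean of at least 50, and 0.17 without Helios pos replicate 2. Among 7 Ptpr genes 2 were higher and 2 lower, with a median of -0.20 and pair medians of -0.26 to -0.068. A fit with the replicate number as a block called 17 members higher and 9 lower, beside 18.9% and 18.5% of all tested genes (37.3% in either direction), and the 9 included 4 Ptpr genes. The fit with the block kept all 23 calls made without it. Among them were the 9 calls that were lost when a library was left out (limma adjusted p with the block 9.85e-05 to 0.0367). The fits with a library left out had no block. No test of the difference between classes was made.

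**Figure D1:**
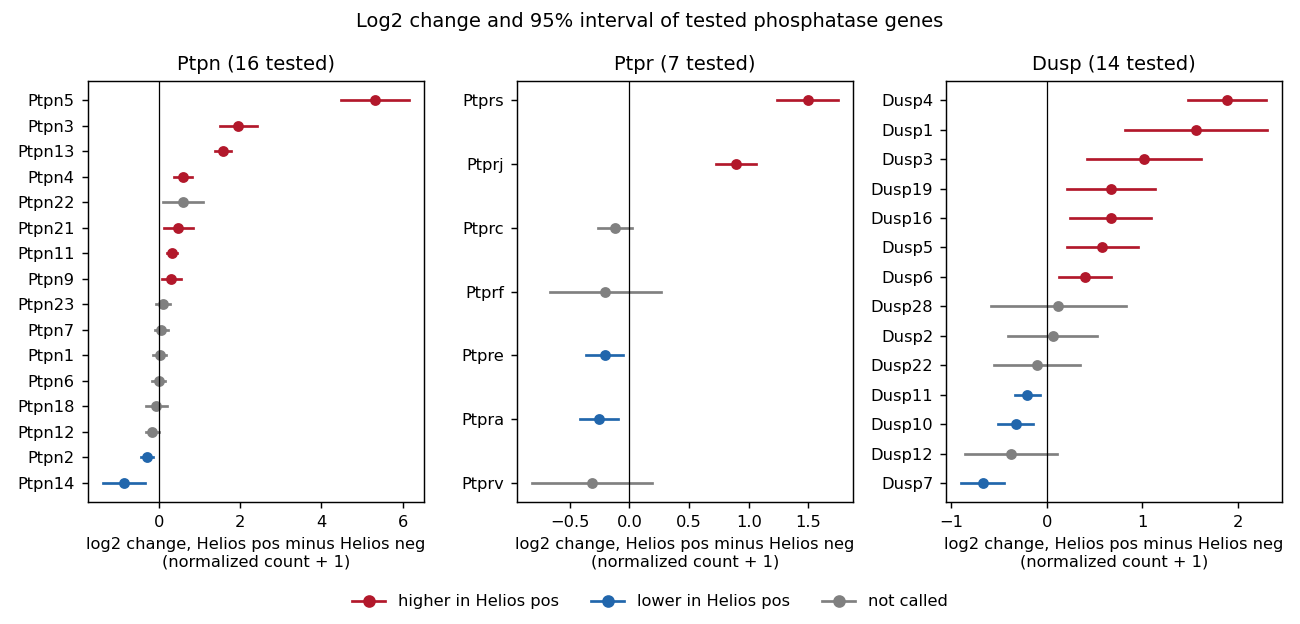
Log2 change (Helios pos minus Helios neg, normalized count + 1) of the 37 tested members by class, with points for the estimate, lines for its 95% interval and colours for the limma call. The 16 members called higher run up to 5.32 (Ptpn5) and the 7 called lower down to -0.86 (Ptpn14).

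By level, the class was led by the receptor CD45. Per kilobase of the longest protein-coding transcript in GENCODE M21, Ptprc averaged 2516 normalized counts in Helios pos and 2736 in Helios neg libraries. Next came Ptpn6 with 903 and 903, Ptpn22 with 701 and 467, Ptpn18 with 452 and 478, Ptpn7 with 322 and 307, and Ptpn1 with 313 and 307 normalized counts per kilobase in Helios pos and Helios neg. Dusp2 led the Dusp class with 257 and 252 normalized counts per kilobase. Of these 7 abundant genes, limma called 0 (1, Ptpn22, at an unadjusted p under 0.05; 0 with edgeR; 1, Ptprc, with DESeq2). The fit with the replicate block called 2 of the 7, Ptpn22 higher and Ptprc lower. Every member called without the block stood below these 7 by this measure, but not by counts undivided by length. Dusp11, called lower, averaged 1077 and 1239 normalized counts in Helios pos and Helios neg libraries. That was above Ptpn18 (705 and 746) and Dusp2 (416 and 407). The lengths used were 6.435 kilobases for Dusp11 and 1.617 for Dusp2.

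Ptpn5 encodes STEP, a phosphatase best known from neurons, where it acts on ERK, p38 and Fyn through a kinase interaction motif. It lies at chromosome 7, 47077795 to 47133684, minus strand. It had 70.2, 73.6, 90.6, 69.9 and 74.2 normalized counts in Helios pos libraries 1 to 5, against 3.51, 0, 1.09, 1.71 and 0 in Helios neg libraries 1 to 5. The transcript was thus present in every Helios pos library and close to the detection limit in Helios neg libraries, with 397 reads against 6 in all. The ratio of the summed reads was 62.3 (95% exact interval 28.4 to 171, counting error only), and the log2 change was 5.32 ± 0.39 (SE; limma adjusted p = 8.37e-08). The close relative Ptpn7 (HePTP), the form of this enzyme type found in blood cells, was abundant at 1049 ± 91.7 normalized counts in Helios pos and 1002 ± 92.1 in Helios neg libraries (SD, n = 5 each) and was not called (log2 change 0.066, 95% interval -0.10 to 0.23).

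All 5 tested genes whose proteins carry a FERM domain, which docks enzymes to the membrane and the cytoskeleton, were called, 4 higher and 1 lower. Ptpn13 (PTP-BAS), a large phosphatase with PDZ domains that binds Fas in human cells, lies at chromosome 5, 103425192 to 103598303, plus strand. It had 854, 924, 738, 961 and 955 normalized counts in Helios pos libraries 1 to 5, against 349, 283, 262, 310.4 and 277 in Helios neg libraries 1 to 5. Every Helios pos library stood above every Helios neg library, by 2.99-fold in means, and the log2 change was 1.58 ± 0.09 (SE; limma adjusted p = 7.08e-09). Ptpn3 (PTPH1), which can dephosphorylate the zeta chain of the T cell receptor, had 62.2 ± 12.9 normalized counts in Helios pos and 15.2 ± 3.21 in Helios neg libraries (SD, n = 5 each). Its Helios pos libraries ran from 39.4 to 70.1 and its Helios neg libraries from 10.9 to 18.7, and the log2 change was 1.96 ± 0.21 (limma adjusted p = 5.01e-06). Ptpn4 (MEG1), the nearest relative of Ptpn3, had 321, 335, 367, 352 and 402 normalized counts in Helios pos libraries 1 to 5, against 274, 264, 191, 209 and 235 in Helios neg libraries 1 to 5. These groups were also apart, and the log2 change was 0.61 ± 0.10 (limma adjusted p = 0.000413).

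The remaining FERM genes are the paralogs Ptpn21 and Ptpn14, whose proteins in human cells act on the Hippo pathway and on Src kinases, and they went opposite ways. Ptpn21 had 80.7, 87.8, 66.7, 65.1 and 55.6 normalized counts in Helios pos libraries 1 to 5, against 65.6, 52.9, 40.4, 42.8 and 52.6 in Helios neg libraries 1 to 5. The groups overlapped although each pair had more in Helios pos, and the log2 change was 0.48 ± 0.17 (limma adjusted p = 0.0484). This call was lost when any of 8 libraries was left out singly, all but Helios pos replicate 5 and Helios neg replicate 1 (adjusted p 0.0677 to 0.128). It was also lost with quantile normalization (adjusted p = 0.136), with no filter on low values (adjusted p = 0.0509), with a mean of at least 50 (adjusted p = 0.0508) and without both libraries of replicate 2 (adjusted p = 0.162). Ptpn14 had 19.9 ± 5.88 normalized counts in Helios pos and 36.5 ± 8.38 in Helios neg libraries (SD, n = 5 each), and it was lower in 4 of 5 pairs, by 0.86 on the log2 scale (-0.86 ± 0.24, limma adjusted p = 0.0172). Pair 5 ran the other way with 26.7 in Helios pos and 22.4 in Helios neg, and without both libraries of replicate 2 the call was lost (adjusted p = 0.110).

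**Figure D2:**
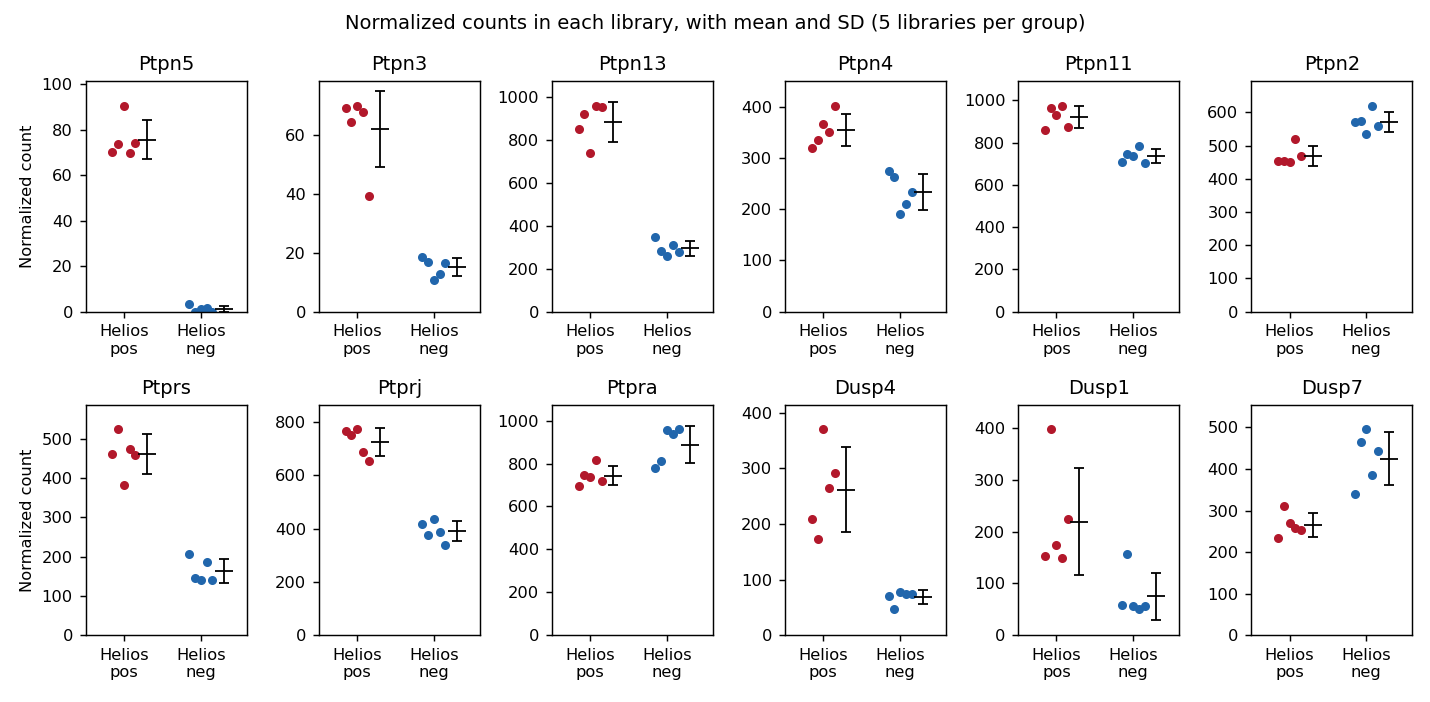
Normalized counts (linear axes from 0) of 12 called members, where each point is 1 of 5 libraries per group and the black bar gives mean and SD. Ptpn5, Ptpn3, Ptpn13, Ptprs, Ptprj and Dusp4 stood apart by 1.86-fold or more in means, while Dusp1 and Ptpra overlapped between the groups.

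The SH2 domain phosphatases Ptpn11 and Ptpn6 are built alike, and 1 of them was called. Ptpn11 (SHP-2), which promotes Ras and ERK signalling and is recruited by PD-1, had 861, 964, 931, 974 and 875 normalized counts in Helios pos libraries 1 to 5, against 706, 746, 737, 785 and 702 in Helios neg libraries 1 to 5. The groups lay apart with a narrow spread, and the log2 change was 0.32 ± 0.06 (SE; limma adjusted p = 0.00112). Ptpn6 (SHP-1), a brake on receptor-near kinases, had 2084 ± 168 normalized counts in Helios pos and 2085 ± 137 in Helios neg libraries (SD, n = 5 each). Its change had a 95% interval of -0.16 to 0.15 and was not called (limma adjusted p = 0.985).

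Ptpn2 (TC-PTP), which dephosphorylates JAK1, STAT5 and Lck, was lower in Helios pos cells. It had 455, 452, 451, 521 and 468 normalized counts in Helios pos libraries 1 to 5, against 570.5, 574, 536, 619.9 and 559 in Helios neg libraries 1 to 5. The highest Helios pos library lay below the lowest Helios neg library, and the log2 change was -0.28 ± 0.07 (SE; limma adjusted p = 0.00531). Its closest relative Ptpn1 (PTP1B), a regulator of insulin and leptin receptors and of JAK2, had 1317 ± 92.2 and 1295 ± 116 normalized counts in Helios pos and Helios neg libraries and was not called (limma adjusted p = 0.847). Ptpn9 (MEG2), an enzyme of secretory vesicles with a lipid-binding domain, had 197, 238, 198, 190.4 and 168 normalized counts in Helios pos libraries 1 to 5, against 153, 162, 189, 153 and 139 in Helios neg libraries 1 to 5. It was higher in 5 of 5 pairs with overlapping groups, by 0.31 ± 0.11 (limma adjusted p = 0.0465). This call was lost when any of 8 libraries was left out singly, all but Helios pos replicate 5 and Helios neg replicate 3 (adjusted p 0.0610 to 0.128), and with quantile normalization (adjusted p = 0.0684).

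The phosphatases with PEST motifs, which bind Csk or cytoskeletal adaptors, gave 0 calls in the unpaired fit (0 with edgeR and DESeq2, and 1 at an unadjusted p under 0.05). Among them Ptpn22 (PEP), a negative regulator of Lck and Zap70 and a susceptibility gene of human autoimmune disease, differed within pairs. It had 2208, 2737, 1509, 1607 and 1553 normalized counts in Helios pos libraries 1 to 5, against 1585, 1833, 921, 1059 and 1004 in Helios neg libraries 1 to 5. Replicates 1 and 2 were the highest in both groups, so the groups overlapped, while each Helios pos library exceeded its partner. The log2 change of 0.60 ± 0.23 (SE) was not called (limma adjusted p = 0.079), but the fit with the replicate block did call it (limma adjusted p = 6.68e-10). Without Helios neg replicate 2 the unpaired fit also called it (adjusted p = 0.0167), as it did without both libraries of replicate 2 (adjusted p = 0.0238). Ptpn12 (PTP-PEST) had 251 ± 18.5 normalized counts in Helios pos and 280.2 ± 10.5 in Helios neg libraries and Ptpn18 had 705 ± 57.5 and 746 ± 156 (SD, n = 5 each), neither called. Ptpn23, a phosphatase-like protein of endosomal sorting, had 382 ± 26.8 and 355 ± 31.5 normalized counts in Helios pos and Helios neg libraries and was not called either.

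**Figure D3:**
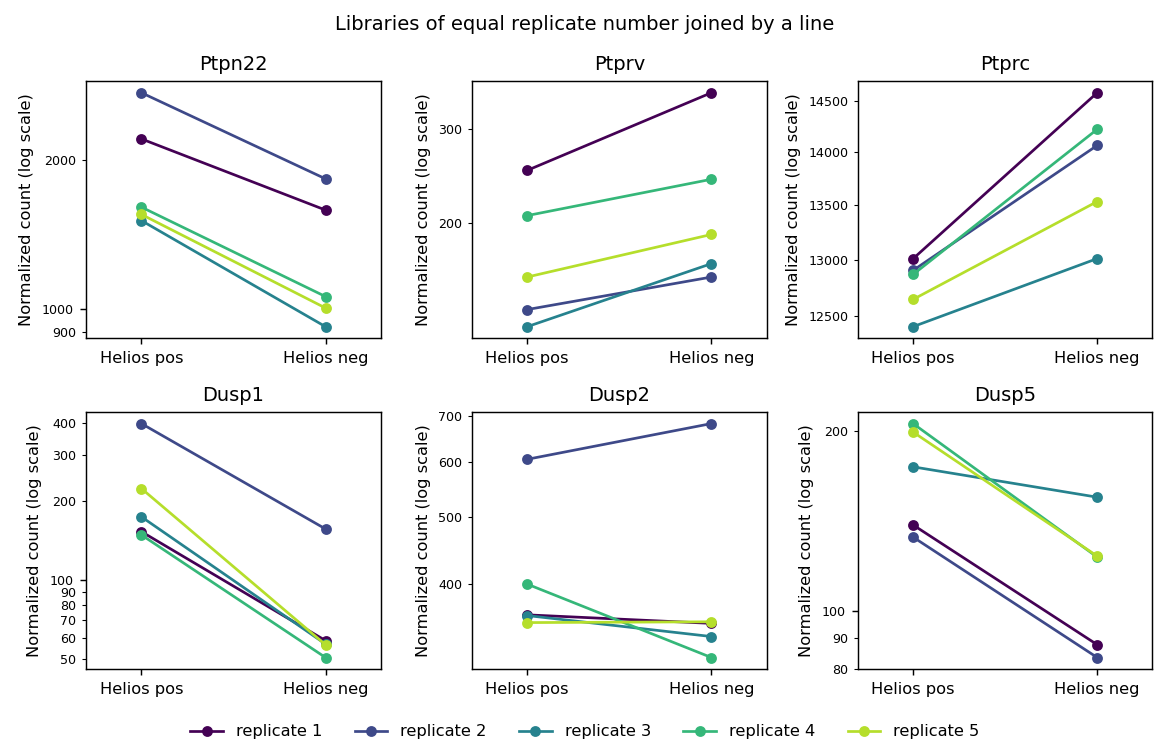
Normalized counts (log axes) of 6 members with libraries of equal replicate number joined by a line, Helios pos left and Helios neg right. Ptpn22 is higher in Helios pos in 5 of 5 pairs although the groups overlap, Ptprv and Ptprc are lower in 5 of 5, and replicate 2 is the highest of both groups for Dusp1 and Dusp2.

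Among receptor-type phosphatases Ptprs and Ptprj, whose extracellular parts carry fibronectin repeats, were higher in Helios pos cells. Ptprs (PTP sigma) binds heparan and chondroitin sulfate proteoglycans and is known from axon growth. It lies at chromosome 17, 56412426 to 56476483, minus strand. It had 462, 524, 383, 475 and 459 normalized counts in Helios pos libraries 1 to 5, against 207, 145, 142, 187 and 140.1 in Helios neg libraries 1 to 5. The groups were far apart, 2.80-fold in means, and the log2 change was 1.49 ± 0.12 (SE; limma adjusted p = 1.91e-07). Its relative Ptprf (LAR) was low, at 28.8 ± 8.40 and 32.5 ± 5.63 normalized counts in Helios pos and Helios neg libraries (SD, n = 5 each), and was not called (limma adjusted p = 0.566). Ptprj (CD148), which can both activate Src family kinases and dephosphorylate T cell receptor components, had 765, 750.2, 772, 687 and 655 normalized counts in Helios pos libraries 1 to 5, against 416, 376, 435, 386 and 339 in Helios neg libraries 1 to 5. No library crossed between the groups, and the log2 change was 0.90 ± 0.08 (limma adjusted p = 5.67e-07).

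The type R4 receptors Ptpra and Ptpre, which have short extracellular parts and activate Src family kinases by removing the inhibitory phosphate at their tail, were both lower. Ptpra had 695, 749, 739, 815 and 719.7 normalized counts in Helios pos libraries 1 to 5, against 780.2, 811, 956, 936 and 959 in Helios neg libraries 1 to 5. Every pair had less in Helios pos, while the groups overlapped through the replicate 4 library of Helios pos, and the log2 change was -0.25 ± 0.08 (SE; limma adjusted p = 0.0223). Left out singly, Helios pos replicate 1 or 5 or Helios neg replicate 4 or 5 ended this call (adjusted p 0.0551 to 0.0631). Ptpre had 516, 498, 467, 447 and 429 normalized counts in Helios pos libraries 1 to 5, against 549, 599, 519.9, 516 and 532 in Helios neg libraries 1 to 5. Its groups touched without crossing, and the log2 change was -0.21 ± 0.07 (limma adjusted p = 0.0486). The Ptpre call was lost when any of 8 libraries was left out singly, all but Helios pos replicate 1 and Helios neg replicate 3 (adjusted p 0.0534 to 0.128), and with edgeR (adjusted p = 0.0713), TMM scaling (adjusted p = 0.0692), quantile normalization (adjusted p = 0.0612) or no filter on low values (adjusted p = 0.0561).

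Ptprc, which encodes CD45, had 13007, 12903, 12412, 12866 and 12647 normalized counts in Helios pos libraries 1 to 5, against 14585, 14065, 13008, 14222 and 13530.5 in Helios neg libraries 1 to 5. The groups met at 13007 and 13008 without crossing, and every pair had less in Helios pos. The change of -0.12 ± 0.07 (SE) was not called by limma (adjusted p = 0.221) or edgeR (adjusted p = 0.32). It was called with the replicate block (limma adjusted p = 0.021) and with DESeq2 (adjusted p = 0.0494), and it was 0.0085 with quantile normalization. Ptprv, the osteotesticular phosphatase, is listed in GENCODE M21 as a processed transcript and had 251, 138, 128, 207 and 159 normalized counts in Helios pos libraries 1 to 5, against 351, 159, 168, 242 and 191 in Helios neg libraries 1 to 5. Replicate 1 and then replicate 4 were the highest in both groups. Each pair had less in Helios pos, and the change of -0.31 ± 0.23 was called with the replicate block only (limma adjusted p = 0.00514, against 0.378 without it). The summed B cell markers were also highest in replicates 1 and 4 of both groups, with 2816 and 2650.2 normalized counts in Helios pos and 3381 and 3047 in Helios neg, and lower in Helios pos in each pair; their part in the values of Ptprv was not tested.

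**Figure D4:**
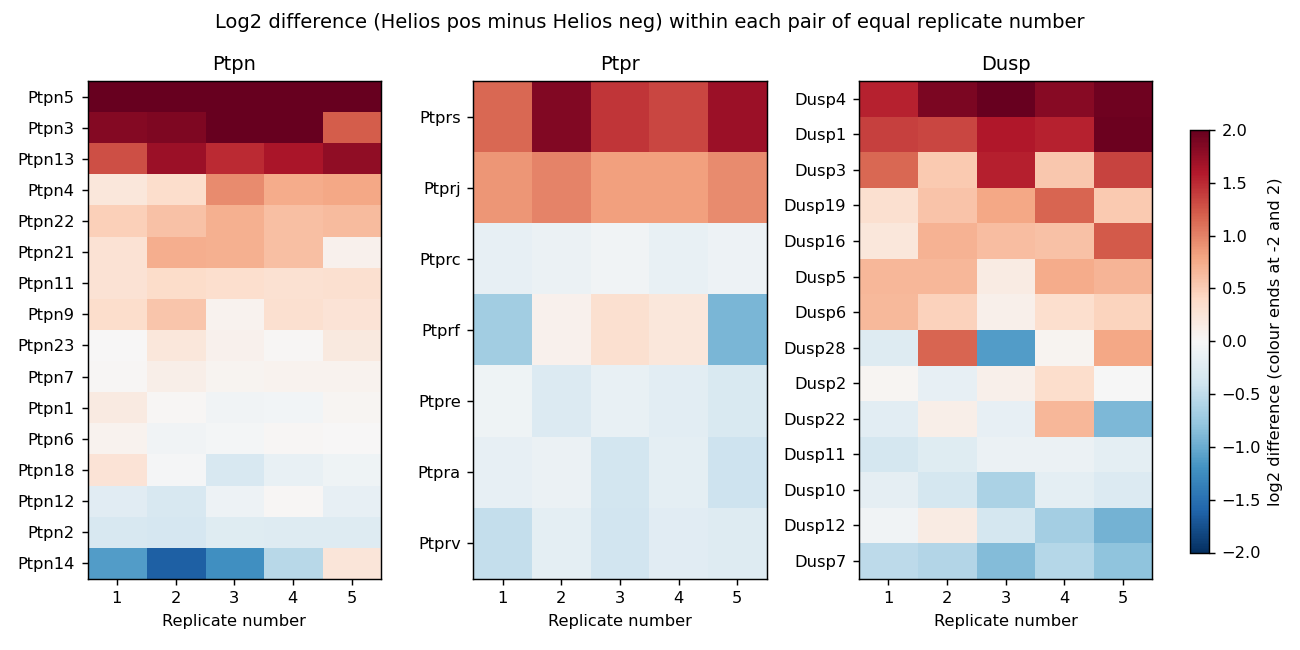
Log2 difference (Helios pos minus Helios neg, normalized count + 1) within each pair of equal replicate number for the 37 tested members, red for higher and blue for lower in Helios pos, with colours ending at -2 and 2. For 27 members all 5 pairs have the same colour direction, among them all called members other than Ptpn14, whose pair 5 is reversed.

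The inducible nuclear Dusp enzymes, immediate targets of MAP kinase signals, were higher for 3 of 4 genes. Dusp4 (MKP-2), which acts on ERK and JNK, lies at chromosome 8, 34807297 to 34819894, plus strand. It had 209, 174, 370.0, 264 and 292 normalized counts in Helios pos libraries 1 to 5, against 71.5, 46.6, 77.5, 74.4 and 74.9 in Helios neg libraries 1 to 5. The groups were far apart, with 174 normalized counts in the lowest Helios pos library and 77.5 in the highest Helios neg library, and the log2 change was 1.88 ± 0.19 (SE; limma adjusted p = 3.6e-06). Dusp1 (MKP-1), which acts mainly on p38 and JNK, had 153, 396, 174, 149 and 224 normalized counts in Helios pos libraries 1 to 5, against 58.6, 157, 56.8, 50.4 and 56.4 in Helios neg libraries 1 to 5. Replicate 2 was the highest of both groups and made them overlap, while all 5 pairs had more in Helios pos, and the log2 change was 1.56 ± 0.34 (limma adjusted p = 0.00495). Without both libraries of replicate 2 the groups were apart and the change was 1.62 (limma adjusted p = 1.04e-05).

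Dusp5, a nuclear phosphatase that binds ERK only, had 139, 133, 174, 206 and 199 normalized counts in Helios pos libraries 1 to 5, against 87.9, 83.6, 155, 123 and 124 in Helios neg libraries 1 to 5. Replicates 1 and 2 were the lowest of both groups, and the groups overlapped. The log2 change was 0.58 ± 0.18 (SE; limma adjusted p = 0.0241), 22.1% of the exon bases lie under another annotated gene, and without Helios pos replicate 3, 4 or 5 or Helios neg replicate 2 the call was lost (adjusted p 0.0510 to 0.0678). Dusp2 (PAC-1), an activation-induced enzyme of blood cells, had 416 ± 108 normalized counts in Helios pos and 407 ± 154 in Helios neg libraries (SD, n = 5 each) and was not called. As with Dusp1, its replicate 2 libraries were the highest, with 606 in Helios pos and 682 in Helios neg, against at most 400.3 and 353 in the other libraries of Helios pos and Helios neg. The 95% interval of its change ran from -0.40 to 0.53.

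The cytoplasmic ERK phosphatases, close paralogs that share their substrate, went opposite ways. Dusp6 (MKP-3), whose gene is itself a target of ERK signalling, had 171, 167, 197, 166 and 163 normalized counts in Helios pos libraries 1 to 5, against 109, 121, 182, 131 and 119.7 in Helios neg libraries 1 to 5. It was higher in all 5 pairs with groups that overlapped through replicate 3, the highest of both groups. The log2 change was 0.40 ± 0.13 (SE; limma adjusted p = 0.0301), a call lost when any of 8 libraries was left out singly, all but Helios pos replicate 5 and Helios neg replicate 3 (adjusted p 0.0509 to 0.0802). Dusp7 (PYST2) had 235, 310.3, 271, 258 and 254 normalized counts in Helios pos libraries 1 to 5, against 339, 465, 495, 385 and 442 in Helios neg libraries 1 to 5. The groups lay apart in the opposite direction, and the log2 change was -0.67 ± 0.11 (limma adjusted p = 0.000211).

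The phosphatases of the stress kinases JNK and p38 were divided in the same way. Dusp16 (MKP-7), which prefers JNK, had 56.6, 93.7, 59.0, 83.5 and 71.9 normalized counts in Helios pos libraries 1 to 5, against 48.0, 57.2, 38.2, 55.6 and 30.2 in Helios neg libraries 1 to 5. All pairs had more in Helios pos although the groups overlapped, and replicates 2 and 4 were the highest of both groups. The log2 change was 0.67 ± 0.20 (SE; limma adjusted p = 0.0212), and without Helios pos replicate 2 or 4 or Helios neg replicate 5 the call was lost (adjusted p 0.0555 to 0.0638), as with quantile normalization (adjusted p = 0.0581). Dusp10 (MKP-5), which acts on p38 and JNK, had 193, 192, 182, 197 and 184 normalized counts in Helios pos libraries 1 to 5, against 219, 245, 282, 226 and 224 in Helios neg libraries 1 to 5. The Helios pos libraries were tightly grouped below all Helios neg libraries, and the log2 change was -0.33 ± 0.09 (limma adjusted p = 0.0113). Without both libraries of replicate 2 its adjusted p was 0.0511.

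Atypical Dusp enzymes lack the MAP kinase docking part and differ in substrate. Dusp11 (PIR1), which acts on the triphosphate end of RNA rather than on proteins, had 1063, 1067, 1140.1, 1109 and 1007 normalized counts in Helios pos libraries 1 to 5, against 1349, 1261, 1234, 1199 and 1153 in Helios neg libraries 1 to 5. All Helios pos libraries lay below all Helios neg libraries, and the log2 change was -0.20 ± 0.06 (SE; limma adjusted p = 0.0273). The call was lost without Helios pos replicate 1, 2 or 5 or Helios neg replicate 2 (adjusted p 0.0533 to 0.0786) and with quantile normalization (adjusted p = 0.110). Dusp3 (VHR), a small phosphatase of ERK, JNK and STAT5, averaged 14.6 ± 2.70 normalized counts in Helios pos and 6.70 ± 1.51 in Helios neg libraries (SD, n = 5 each), by 1.02 ± 0.28 (limma adjusted p = 0.0136). Its mean over the 10 libraries was 10.6, so it passed the minimum of 10 only through the Helios pos libraries. Dusp3 shares 12.9% of its exon bases with another gene and was not called with quantile normalization (adjusted p = 0.162). Dusp19, which binds components of the JNK pathway, averaged 23.8 ± 4.49 and 14.5 ± 1.88 normalized counts in Helios pos and Helios neg libraries, a change of 0.67 ± 0.22 (limma adjusted p = 0.0326). The Dusp19 call was lost when any of 8 libraries was left out singly, all but Helios pos replicate 1 and Helios neg replicate 5 (adjusted p 0.0513 to 0.0900), and with quantile normalization (adjusted p = 0.248). Dusp12, Dusp22 and Dusp28 had 36.5 ± 11.5, 47.0 ± 11.4 and 13.8 ± 6.37 normalized counts in Helios pos libraries, against 46.3 ± 9.07, 49.9 ± 10.5 and 11.8 ± 2.71 in Helios neg libraries, and were not called; 49.8% of the exon bases of Dusp12 overlap other genes.

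Among the 7 members too low to be tested, Dusp14 (MKP-6), an atypical enzyme that in T cells acts on TAB1, stood out after its values were seen. It had 6.29, 13.4, 8.55, 20.4 and 10.4 normalized counts in Helios pos libraries 1 to 5, against 0, 0, 1.09, 1.71 and 0 in Helios neg libraries 1 to 5. Every Helios pos library exceeded every Helios neg library, with 62 reads against 3 in all and a ratio of 19.5 (95% exact interval 6.36 to 97.0, counting error only). With no filter on low values limma called it higher (adjusted p = 4.75e-05). Dusp18 had 10 reads in Helios pos and 1 in Helios neg libraries, a ratio of 9.42 (interval 1.34 to 409, counting error only). Its groups overlapped, pair 5 ran the other way, and limma did not call it with no filter (adjusted p = 0.177). Ptprk, Ptprm, Ptprn, Ptpro and Dusp23 averaged between 0.798 and 7.19 normalized counts in Helios pos and between 0.423 and 6.34 in Helios neg libraries, and their groups overlapped.

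Other genes of the same pathways were counted beside the members, from lists chosen with earlier results of these data known. Of 34 tested genes of other families in the tyrosine phosphatase superfamily, 8 were higher and 5 lower in Helios pos cells. That was 38.2%, beside 24.8% of all tested genes, with a median change of -0.0058. The examples with the smallest p were Cdc25b, which activates cyclin-dependent kinases, at 423 ± 20.9 normalized counts in Helios pos and 188 ± 12.3 in Helios neg libraries, both ± SD (n = 5 each). Eya2, a tyrosine phosphatase and transcriptional cofactor, had 44.3 to 69.5 normalized counts in Helios pos and 178 to 218 in Helios neg libraries. Ubash3b (Sts-1), which dephosphorylates Zap70, changed by 0.70 ± 0.08 and the lipid phosphatase gene Mtmr7 by 1.35 ± 0.22 (limma adjusted p = 8.76e-06 and 0.000262). The lower genes also included Ptp4a3, Ssh2 and Rngtt. Of 26 serine and threonine phosphatase genes, 3 were higher, namely Phlpp1, Ppm1l and Ppm1b, and 4 lower, namely Ppm1h, Ppp3ca, Ppm1k and Ppm1j. That was 26.9%, close to the 24.8% of all tested genes, with a median of 0.022. With the replicate block 5 were higher and 5 lower, beside 18.9% and 18.5% of all tested genes. Phlpp1, which acts on Akt, had 429 ± 57.1 normalized counts in Helios pos and 194 ± 15.7 in Helios neg libraries.

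Kinases of the MAP kinase cascades, the substrates of the Dusp class, were counted as well. Of 27 tested, 1, Map2k3, was higher and 3, Map3k3, Mapk11 and Map3k2, were lower (14.8%, beside 24.8% of all tested genes, median -0.049). With the replicate block 2 were higher and 5 lower, beside 18.9% and 18.5% of all tested genes. Map2k3, which activates p38, changed by 0.44 ± 0.12 and Mapk11, a p38 kinase, by -0.51 ± 0.11 (limma adjusted p = 0.0156 and 0.00239). Of 11 tested genes of ERK feedback and ERK response other than Dusp, 4 were higher, namely Spry1, Egr1, Etv5 and Phlda1, and 1, Rasal3, was lower (45.5%, median 0.21). Spry1, an inhibitor of Ras signalling, had 134 ± 30.9 normalized counts in Helios pos and 68.5 ± 24.5 in Helios neg libraries, and the ERK-responsive factor Egr1 had 724 ± 86.8 and 525 ± 68.7 (SD, n = 5 each). The Phlda1 call was lost without Helios pos replicate 3 or 4 or Helios neg replicate 2 or 5 (adjusted p 0.0528 to 0.0617). With the replicate block 5 of these 11 genes were higher and 3 lower, beside 18.9% and 18.5% of all tested genes.

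Transcripts of proteins on which the tyrosine phosphatases act in T cells were called in both directions. Of 24 genes of proximal T cell receptor and JAK-STAT signalling, 7 were lower and 4, Zap70, Jak2, Fyn and Stat5a, were higher. That was 45.8%, beside 24.8% of all tested genes, with a median of -0.068. The call of Stat5a was lost when any of 7 libraries was left out singly, all but Helios pos replicate 1 and Helios neg replicates 3 and 5 (adjusted p 0.0514 to 0.0826). Among the lower genes, the call of Cblb was lost without Helios pos replicate 3, 4 or 5 or Helios neg replicate 1, 2 or 4 (adjusted p 0.0648 to 0.128). That of Vav1 was lost without Helios pos replicate 3, 4 or 5 or Helios neg replicate 2 or 5 (adjusted p 0.0514 to 0.0720). Pag1, an adaptor that brings Csk to the membrane, had 784 ± 38.1 normalized counts in Helios pos and 1400.1 ± 79.1 in Helios neg libraries (SD, n = 5 each). The adaptor Lat had 969 ± 73.9 and 1463 ± 76.4, and Jak1, a substrate of Ptpn2, 5903 ± 301 and 7723 ± 798 normalized counts in Helios pos and Helios neg libraries. For Pag1, Lat and Jak1 the groups did not overlap (limma adjusted p = 9.8e-08, 7.72e-06 and 0.00212).

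**Figure D5:**
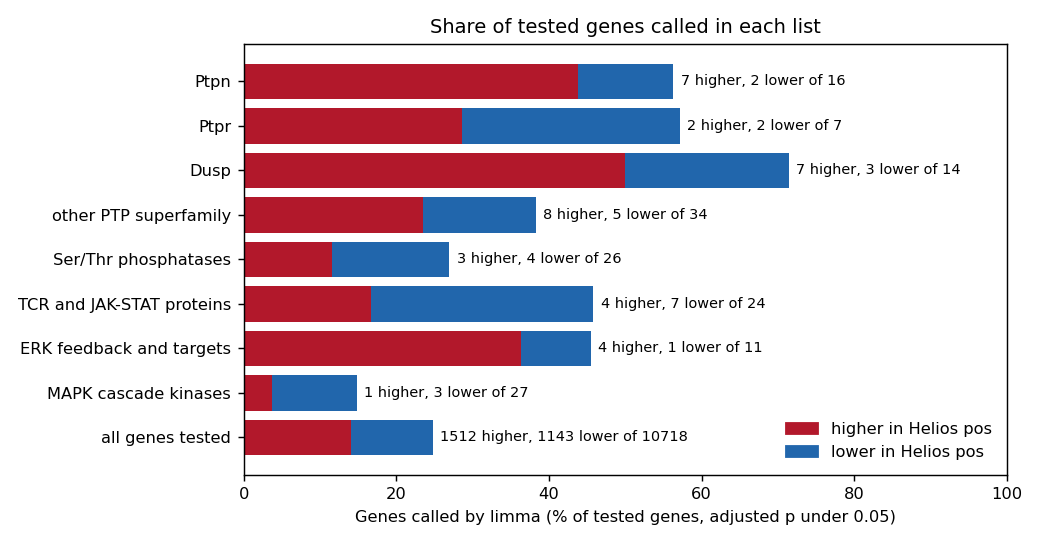
Share of tested genes called higher (red) or lower (blue) in Helios pos cells for the 3 phosphatase classes, the 5 lists of related genes and all 10718 tested genes. The Dusp bar reaches 71.4%, the Ptpr bar 57.1% and the Ptpn bar 56.2%, against 14.8% for MAP kinase cascade kinases and 24.8% for all tested genes.

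Of 8 T cell and regulatory T cell markers, Foxp3 among them, 3 were called higher and 0 lower (37.5%, beside 24.8% of all tested genes, median change 0.21). The 3 were Il2ra, Ctla4 and Ikzf4, and the fit with the replicate block called 5 higher. The calls of Il2ra and Ctla4 were lost in 5 and 6 of the 10 fits with a library left out. Markers of other cell types were present in libraries of both groups. The 10 B cell markers, led by Cd22 and Cr2, summed to 1881 to 2816 normalized counts in Helios pos and 2223 to 3381 in Helios neg libraries, with 0 called higher and 1, Ebf1, lower, a call lost in 6 of the 10 fits with a library left out (Helios pos replicates 2 to 5, Helios neg replicates 1 and 4; adjusted p 0.0518 to 0.0834). The fit with the replicate block called 6 of the 10 lower, among them Pax5, Ebf1, Cd22, Fcer2a and Cr2 (limma adjusted p 0.00271 to 0.0112), and 0 higher. Over all tested genes the fit with the block called 18.9% higher and 18.5% lower. The B cell sum was lower in Helios pos in 5 of 5 pairs. The 13 myeloid markers in the table, led by Lyz2 and Itgam, summed to 414 to 794 in Helios pos and 326 to 527 in Helios neg, with Csf1r called higher, and 2 called higher with the block. The 9 NK and CD8 markers, led by Cd8b1 and Cd8a, summed to 578 to 664 and 594 to 725, with Nkg7 higher and Prf1 lower, and 2 lower with the block. The 5 red cell and platelet markers in the table, led by Itga2b and Alas2, summed to 11.7 to 40.9 and 23.9 to 53.9 normalized counts in Helios pos and Helios neg. Of 7 stromal and epithelial markers in the table, 2 were high enough to be tested. Pecam1 was lower at 775 and 1509 and Epcam higher at 144 and 18.6 normalized counts in Helios pos and Helios neg. The others had means under 10, so this list rests on these 2 genes. No marker in the table was at 0 throughout. Which cells the marker RNA came from was not tested, nor was the part of any other cell type in the phosphatase values.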

How the data were processed

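The authors deposited a table of normalized counts, a signal that is never negative, for 13252 genes in 10 libraries. Per the labels' protocols, total RNA libraries were made with a stranded kit for picogram input after column extraction with DNase I. Per the submitters' processing notes, HISAT2 2.0.4, HTSeq, DESeq2 and the build mm10 were used, with no role given for each; no source here gives the annotation or strand setting, so overlapping or antisense genes may share reads. Within a tolerance of 0.001, 100% of the deposited values were whole multiples of the smallest value above 0 in their library, and the reads so recovered were used for depth, edgeR and DESeq2. On these reads edgeR called 2637 genes and DESeq2 2846.

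The main test was limma 3.58.1 (R 4.3.3, trend and robust) on log2(normalized count + 1) over the 10718 genes with a mean of at least 10, with group as the only term and Benjamini-Hochberg adjustment over all of them; 2534 genes were left out as low. Alternatives were the replicate block, TMM scaling, quantile normalization, pseudocounts of 0.5 and 5, no filter, a mean of at least 50, edgeR 4.0.16, DESeq2 1.42.0 and each library left out. Leaving out both libraries of replicate 2 was added after seeing the data, because Dusp1 and Dusp2 were highest there. Deviations from the group means correlated between libraries of equal number (0.48, 0.19, 0.39, 0.16 and 0.15 for numbers 1 to 5, all over 0.1; median with other numbers -0.03), so the numbers given in the labels were taken to pair the samples. The main test and the fits with a library left out did not use this pairing. Within groups, libraries differed beyond sampling noise (chi-square per degree of freedom 3.55 to 52.8 over 20 pairs). The test scripts were checked on simulated data.

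The members and gene lists were chosen with earlier results of these data known. All members are named; values in every library are given for members called with a mean of at least 50, and also for Ptpn5, Ptpn22, Ptprc, Ptprv and Dusp14, chosen after their values were seen. From each related list the 4 called genes with the smallest p are named, and all in a direction with 5 or fewer; a few genes that this takes are not reported here. Coordinates and transcript lengths are from GENCODE M21 (GRCm38, the assembly also called mm10). The length is that of the longest protein-coding transcript, or of the longest of any kind where none is coding. Intervals on reads cover counting error only.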

Additional observations from a re-analysis of the deposited data

Results flagged for a closer look

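In 8 of 74 groups of 5 libraries (37 members in both populations), the highest or lowest library stood apart from the others by Dixon's criterion, which chance meets in about 1 in 20 groups. Replicate 2 accounted for 4 of them. For Dusp1, Helios neg replicate 2 had 157 normalized counts, against 50.4 to 58.6 in the other Helios neg libraries. For Dusp2, Helios pos replicate 2 had 606 against 352 to 400.3 in the others, and Helios neg replicate 2 had 682 against 314 to 353. For Dusp4, Helios neg replicate 2 was the lowest with 46.6, against 71.5 to 77.5 in the other Helios neg libraries. Without both libraries of replicate 2, the log2 change of Dusp4 was 1.88 (limma adjusted p = 4.77e-06) and that of Dusp2 0.12 (limma adjusted p = 0.367).

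The other 4 were Helios pos libraries. Ptpn2 was highest in replicate 4 with 521 normalized counts, against 451 to 468 in the others. Ptpn3 was lowest in replicate 5 with 39.4, against 64.4 to 70.1, and without that library its log2 change was 2.11 (limma adjusted p = 3.52e-06). Ptpn5 was highest in replicate 3 with 90.6, against 69.9 to 74.2, and Dusp6 was highest in replicate 3 with 197, against 163 to 171. Causes were not tested.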

How the results depend on the processing

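Of the 23 called members, 14 were called with each of the 10 libraries left out singly, and all 23 kept their direction under each alternative that tested them; Ptpn3, Ptpn5, Ptpn14, Dusp3 and Dusp19 were not tested at a mean of at least 50. With the replicate block 4 Ptpr genes and 1979 genes in all were lower, Ptpn22, Ptprc and Ptprv were added, and no other member's call changed. The 2 lower Ptpr calls became 1 with TMM scaling, quantile normalization, no filter, edgeR and without replicate 2, and 0 to 2 with libraries left out singly. Dusp genes called higher numbered 4 with quantile normalization and 3 to 6 with libraries left out, which tests fewer samples. At a mean of at least 50, which tests fewer genes, 4 Ptpn genes were higher and 1 lower, with a median of 0.11. Without replicate 2 the lower calls were 1 Ptpn and 1 Dusp gene, and besides the losses named in the report Ptpn9 (adjusted p = 0.172), Ptpre (0.128), Dusp6 (0.110), Dusp11 (0.111) and Dusp19 (0.0795) were not called. The Ptpr median was -0.12 with no filter and -0.22 to -0.12 with libraries left out, and the Dusp median 0.40 with no filter or the stricter minimum of 50, and 0.17 to 0.36 with libraries left out. Members near 0 that were not called changed sign. Ptpn6 was 0.012 with TMM scaling, 0.013 with edgeR, 0.074 with quantile normalization, 0.0037 with DESeq2 and 0.016 without replicate 2. With quantile normalization Ptprc was 0.0085 and Dusp28 -0.30, and Dusp28 was -0.14 without replicate 2. With libraries left out singly, Ptpn1 ranged from -0.0033 to 0.070, Ptpn6 from -0.028 to 0.038, Ptpn18 from -0.17 to 0.041, Dusp2 from -0.080 to 0.26, Dusp22 from -0.21 to 0.073 and Dusp28 from -0.073 to 0.37. The causes were not tested. The chosen filter left 7 members untested; with no filter 1 of them, Dusp14, was called.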
